A study of Mus musculus with 9 samples.

Results

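In p53-null mouse oligodendrocyte progenitor cells (OPCs), 18 autosomal genes were near silent in a line without PDGF-BB and readily counted in a PDGF-BB line. They were chosen from the counts themselves. Each count was divided by its library's total and multiplied by 1000000 (CPM), and a gene qualified with a mean under 0.2 CPM in p53n and of at least 2 CPM in BB-p53n DMSO. Of 52647 autosomal genes in the table, 34594 were under 0.2 CPM in p53n, 21 of these reached 2 CPM in BB-p53n DMSO, and Twist1, Tbx3 and Hapln1 were left out by name. The difference between these groups is therefore how the genes were found. It is described here without a test. The effect of the EZH2 inhibitor was tested: the inhibitor libraries played no part in the choice, whereas the BB-p53n DMSO libraries they are set against did.

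The series holds 9 libraries of polyadenylated RNA in 3 groups of 3, all from primary OPC lines labelled Trp53 -/- and grown with 10 ng/mL of PDGF-AA. BB-p53n EZH2i cells express PDGF-BB and received 5 µM of tazemetostat for 48 hours, BB-p53n DMSO cells express PDGF-BB and received the vehicle, and p53n cells are the untreated line without PDGF-BB. The labels describe neither the PDGF-BB construct nor the number of animals or cultures behind each line, and DMSO was given to PDGF-BB cells only. The labels do not say whether the PDGF-BB line came from the p53n line, and these lines differ in Xist and Y-linked genes, as given below. PDGF-BB, vehicle and the origin of the line cannot be told apart.

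OPCs are dividing glial precursors that respond to PDGF through the receptor PDGFRα and mature into myelinating oligodendrocytes. EZH2 is the catalytic subunit of Polycomb repressive complex 2, which places the H3K27me3 mark on silent genes, many of them developmental regulators with CpG-rich promoters. Tazemetostat blocks that activity, and loss of the mark is known to allow some such genes to be transcribed.

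The promoters were of both kinds, and 4 are printed to show the contrast: CpG-poor Lrrn4 and Nts, which include the highest-level gene and the gene with the largest rise with inhibitor, and CpG-rich Foxa1 and Ikzf1. Each window runs from 250 bases before to 50 bases after the annotated start, read 5′ to 3′ on the gene's strand, from RefSeq on GRCm38.p6, with every CpG in capitals. The Lrrn4 window is chr2:132880813-132881112 (minus strand), the Nts window chr10:102490369-102490668 (minus strand), the Foxa1 window chr12:57546062-57546361 (minus strand) and the Ikzf1 window chr11:11685675-11685974 (plus strand).
Lrrn4: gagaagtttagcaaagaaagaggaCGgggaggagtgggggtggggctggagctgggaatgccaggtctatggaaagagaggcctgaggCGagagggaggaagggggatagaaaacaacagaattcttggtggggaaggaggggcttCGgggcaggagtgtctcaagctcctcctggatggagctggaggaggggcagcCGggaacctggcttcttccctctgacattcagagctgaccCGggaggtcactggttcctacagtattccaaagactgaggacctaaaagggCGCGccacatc
Nts: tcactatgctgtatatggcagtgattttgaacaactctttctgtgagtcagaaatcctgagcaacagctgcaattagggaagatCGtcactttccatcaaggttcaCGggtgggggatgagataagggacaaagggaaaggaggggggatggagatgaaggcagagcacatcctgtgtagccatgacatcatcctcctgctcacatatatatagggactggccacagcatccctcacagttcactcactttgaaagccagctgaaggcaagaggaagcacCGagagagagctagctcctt
Foxa1: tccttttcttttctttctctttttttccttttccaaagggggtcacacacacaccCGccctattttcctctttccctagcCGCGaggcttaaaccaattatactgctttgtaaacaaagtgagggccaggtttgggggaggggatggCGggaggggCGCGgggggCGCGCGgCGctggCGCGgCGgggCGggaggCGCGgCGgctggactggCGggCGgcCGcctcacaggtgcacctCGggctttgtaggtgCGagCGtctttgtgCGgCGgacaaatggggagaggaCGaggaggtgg
Ikzf1: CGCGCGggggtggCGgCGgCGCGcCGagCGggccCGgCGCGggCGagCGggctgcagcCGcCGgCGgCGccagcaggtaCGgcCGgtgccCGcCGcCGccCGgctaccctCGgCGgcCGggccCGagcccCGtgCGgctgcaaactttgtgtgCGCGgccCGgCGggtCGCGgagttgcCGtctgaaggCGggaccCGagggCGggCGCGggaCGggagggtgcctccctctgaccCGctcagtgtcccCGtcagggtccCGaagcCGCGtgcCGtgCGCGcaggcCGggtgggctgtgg
The Lrrn4 window holds 7 CpGs and the Nts window 3, against 26 in the Foxa1 window and 52 in the Ikzf1 window.

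Library totals lay between 19471768 and 34557109 counts, so that 3 counts in a library were worth 0.0868 to 0.154 CPM. The OPC label fitted its markers in part: Olig2 averaged 877 CPM in BB-p53n EZH2i, 791 in BB-p53n DMSO and 554 in p53n, and Pdgfra averaged 502, 964 and 1547 CPM in the same order of groups, but Sox10 averaged 449 and 294 CPM in the PDGF-BB groups and 2.29 CPM in p53n. Trp53 itself was still counted, at 14.02, 13.3 and 7.61 CPM, and Ezh2 was at 109, 169 and 117 CPM. Counts of Pdgfb were 6, 4 and 3 in BB-p53n EZH2i, 4, 8 and 4 in BB-p53n DMSO, and 0, 1 and 0 in p53n. Whether a transcript of the PDGF-BB construct would be counted there is not known. Xist lay between 2.72 and 16.8 CPM in BB-p53n EZH2i, between 45.1 and 64.4 CPM in BB-p53n DMSO and between 2860 and 3257 CPM in p53n, while the Y-linked genes Kdm5d, Eif2s3y, Uty and Ddx3y lay between 2.41 and 18.0, between 20.8 and 54.1, and between 0.215 and 0.972 CPM. The share of mitochondrial counts was 1.34% to 1.54%, 2.44% to 2.62% and 4.46% to 5.76% in the same order of groups, and the part of these differences in the results below was not tested.

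Few silent genes crossed the gap. Of the 34594 genes under 0.2 CPM in p53n, 34036 (98.4%) were also under 0.2 CPM in BB-p53n DMSO, 509 lay between 0.2 and 1 CPM, 28 between 1 and 2 CPM, and 21 at 2 CPM or more. In the opposite direction 75 autosomal genes were under 0.2 CPM in BB-p53n DMSO and at 2 CPM or more in p53n.

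The 18 genes were weakly expressed even where they were on. Their means in BB-p53n DMSO ran from 2.18 to 16.4 CPM with a median of 2.86, and 12 of 18 were under 3 CPM. Every one had at least 67 counts in each BB-p53n DMSO library. None was fully without counts in p53n: each had at least 1 count over the p53n libraries, and the highest single library held 11 counts, for Lif. The genes nearest inside the upper threshold were Nts, Klrb1c and Hhex, at 2.18, 2.41 and 2.43 CPM in BB-p53n DMSO, and those nearest outside were Postn, A930003A15Rik and C030034L19Rik, at 1.92, 1.86 and 1.74 CPM. The genes nearest inside the silent threshold were Lif, Nts and Hhex, at 0.193, 0.192 and 0.187 CPM in p53n, and those nearest outside were CT030642.2, Gm43820 and Foxd2, at 0.213, 0.229 and 0.252 CPM. Of the genes left out by name, Twist1 averaged 4.62 CPM in BB-p53n EZH2i, 4.11 in BB-p53n DMSO and 0.0119 in p53n, Tbx3 averaged 2.65, 3.76 and 0.0286 CPM, and Hapln1 averaged 1.37, 5.16 and 0.0405 CPM.

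**Figure D1:**
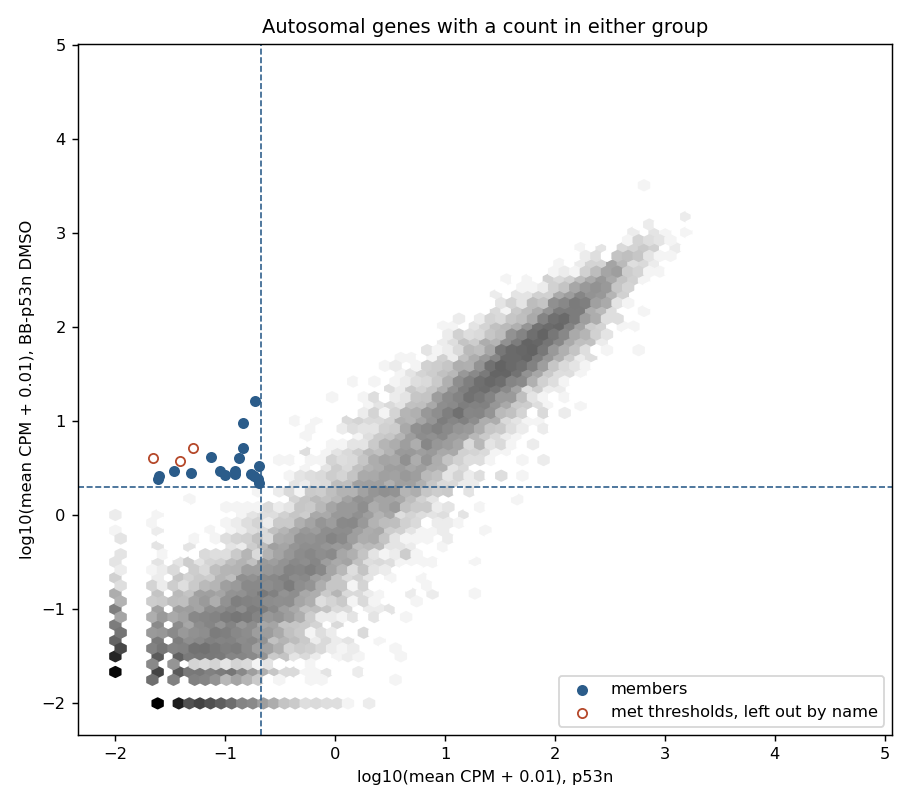
Mean CPM in BB-p53n DMSO (vertical axis) against mean CPM in p53n (horizontal axis) for autosomal genes with a count in either group, both as log10(CPM + 0.01), with darker hexagons for more genes, dashed lines at the thresholds of 2 and 0.2 CPM, filled points for the 18 genes and open circles for the 3 genes left out by name. The 18 genes sit in the sparse upper left corner, and 12 of them lie below 3 CPM in BB-p53n DMSO.

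By kind, 14 of the 18 are annotated as protein coding, 1 as an antisense transcript (E030013I19Rik), 1 as a lincRNA (Gm49335) and 1 as an unconfirmed transcript to be experimentally tested (Gm45104), and ENSMUSG00000119993 has no entry in the annotation used. Protein-coding genes made up 21.2% of all autosomal genes silent in p53n. No 2 of the genes belong to the same counted name family apart from 3 Gm clone names: the Zfp, Pcdh, Cdh, Krt, Col, Hox, Kcn, Slc and Serpin families gave 0 members each. Below, the genes are ordered by what their products do, starting with 7 that encode transcription factors, a grouping made after the genes were known.

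**Figure D2:**
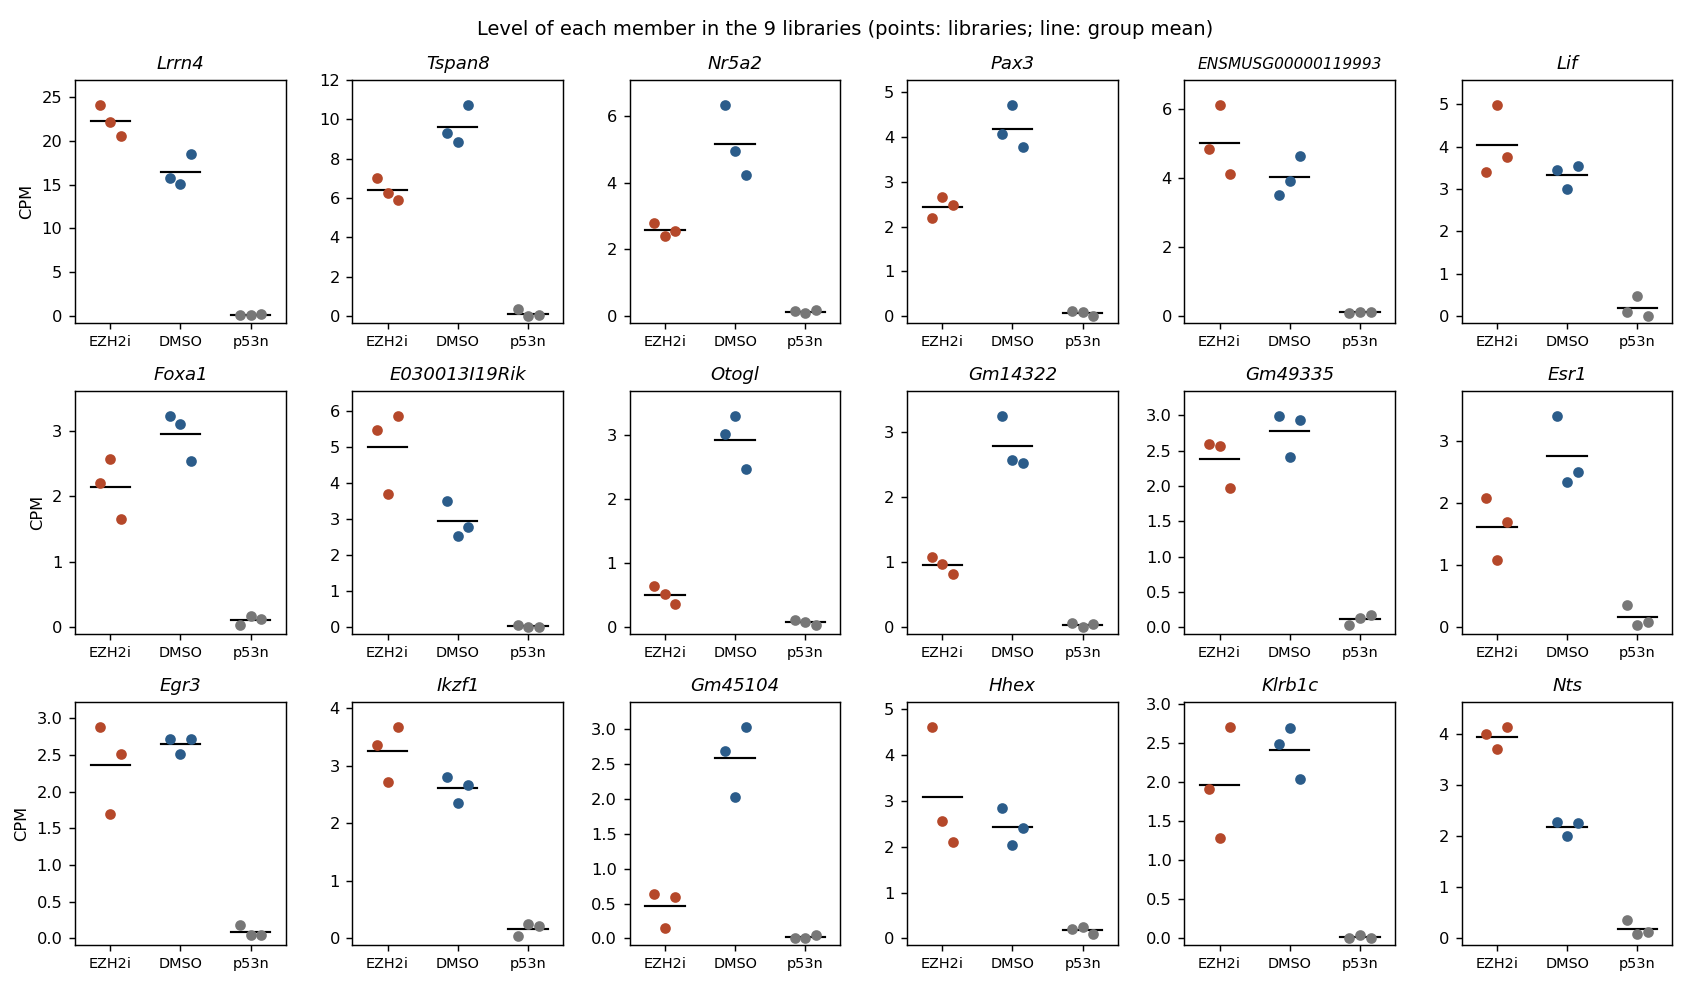
CPM of each of the 18 genes (vertical axis, from 0 or just below, scaled per gene) in the 3 libraries of BB-p53n EZH2i, BB-p53n DMSO and p53n, with points for libraries and a line for each group mean. Every BB-p53n EZH2i and BB-p53n DMSO point lies above every p53n point, and Lrrn4 is the only gene above 11 CPM.

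Among the transcription factors, 2 are nuclear receptor genes. Nr5a2, the orphan receptor LRH-1 of early embryo, liver and gut (GRCm39 chr1:136770309-136888186, minus strand), had 2.80, 2.41 and 2.57 CPM in BB-p53n EZH2i, 6.32, 4.95 and 4.22 CPM in BB-p53n DMSO, and 0.143, 0.0858 and 0.177 CPM in p53n. Esr1, the oestrogen receptor alpha gene (chr10:4561593-4955614, plus strand), had 2.08, 1.08 and 1.70 CPM in BB-p53n EZH2i, 3.39, 2.34 and 2.51 CPM in BB-p53n DMSO, and 0.357, 0.0429 and 0.0884 CPM in p53n. In both genes every inhibitor library was below every DMSO library and above every p53n library. The log2 fold change of BB-p53n EZH2i over BB-p53n DMSO was -0.99 for Nr5a2 (SE 0.20, adjusted p = 0.000172) and -0.74 for Esr1 (SE 0.30, adjusted p = 0.0337; edgeR quasi-likelihood test, Benjamini-Hochberg adjustment over 17001 genes, as for all adjusted p-values below). Over the whole table the effect of the inhibitor followed GC content and exon length, so a second value, with that trend removed from each library, is given wherever it changes a call, a direction or a size. With the trend removed neither gene passed, at -0.15 for Nr5a2 (adjusted p = 0.535) and, with the sign turned, 0.34 for Esr1 (adjusted p = 0.359). The Esr1 call was also lost without DMSO library 1 (adjusted p = 0.165), EZH2i library 2 (0.114) or EZH2i library 3 (0.0665).

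Pax3, a paired-box factor of the dorsal neural tube and neural crest (chr1:78077904-78173771, minus strand), had 2.20, 2.67 and 2.47 CPM in BB-p53n EZH2i, 4.07, 4.72 and 3.79 CPM in BB-p53n DMSO, and 0.107, 0.0858 and 0 CPM in p53n. It fell by 0.77 on the log2 scale with inhibitor (SE 0.22, adjusted p = 0.0037), with no overlap between the groups. With the trend removed the log2 fold change was -0.60 (adjusted p = 0.0212). The summed level of the 14 neural crest and Schwann cell markers, which include Pax3, was highest in p53n, at 250 to 284 CPM in BB-p53n EZH2i, 301 to 311 CPM in BB-p53n DMSO and 1198 to 1274 CPM in p53n, and most of the p53n sum was Ednrb at 1032 CPM. Tyr was at 0 in every group, Mlana and Tfap2b were at or under 0.0954 CPM, and Tfap2a was at 9.55, 9.76 and 0.655 CPM in BB-p53n EZH2i, BB-p53n DMSO and p53n.

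Foxa1 and Hhex are factors of endoderm, and Hhex also acts in blood progenitors. Foxa1, a forkhead pioneer factor (chr12:57587414-57593702, minus strand), had 2.20, 2.57 and 1.65 CPM in BB-p53n EZH2i, 3.22, 3.10 and 2.54 CPM in BB-p53n DMSO, and 0.0357, 0.172 and 0.133 CPM in p53n. Hhex, a homeobox factor (chr19:37423258-37429179, plus strand), had 4.60, 2.57 and 2.11 CPM in BB-p53n EZH2i, 2.84, 2.03 and 2.41 CPM in BB-p53n DMSO, and 0.214, 0.257 and 0.0884 CPM in p53n. The inhibitor and DMSO libraries overlapped in both genes, and 1 BB-p53n EZH2i library of Hhex stood well above the rest. Neither passed the test, at log2 fold changes of -0.46 for Foxa1 (SE 0.25, adjusted p = 0.0942) and 0.36 for Hhex (SE 0.27, adjusted p = 0.227). With the trend removed Foxa1 was lower, at -1.10 (adjusted p = 0.000587), and Hhex was at 0.07 (adjusted p = 0.832).

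Egr3 and Ikzf1 complete the group. Egr3, an immediate early zinc finger gene induced by growth factor signals (chr14:70314652-70320063, plus strand), had 2.88, 1.69 and 2.52 CPM in BB-p53n EZH2i, 2.72, 2.52 and 2.72 CPM in BB-p53n DMSO, and 0.179, 0.0429 and 0.0442 CPM in p53n. Ikzf1, the lymphoid factor Ikaros (chr11:11634980-11722926, plus strand), had 3.36, 2.72 and 3.66 CPM in BB-p53n EZH2i, 2.81, 2.34 and 2.66 CPM in BB-p53n DMSO, and 0.0357, 0.257 and 0.221 CPM in p53n. Inhibitor and DMSO libraries overlapped in both, and the log2 fold changes of -0.15 for Egr3 (SE 0.25, adjusted p = 0.593) and 0.33 for Ikzf1 (SE 0.24, adjusted p = 0.221) did not pass the test. With the trend removed Ikzf1 was higher, at 0.92 (adjusted p = 0.002), and Egr3 was at -0.46 (adjusted p = 0.114).

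The secreted factors were Lif and Nts, and they differed in their response. Nts, the precursor of the neuropeptide neurotensin (chr10:102317617-102326347, minus strand), had 4.00, 3.70 and 4.12 CPM in BB-p53n EZH2i, 2.28, 2.00 and 2.26 CPM in BB-p53n DMSO, and 0.357, 0.0858 and 0.133 CPM in p53n. All 3 inhibitor libraries were above all 3 DMSO libraries, and the log2 fold change of 0.86 (SE 0.23, adjusted p = 0.00214) was the largest rise among the 18 genes and grew to 1.76 with the trend removed (SE 0.23, adjusted p = 8.98e-07). Lif, a cytokine of the interleukin-6 family (chr11:4207557-4222514, plus strand), had 3.40, 4.98 and 3.76 CPM in BB-p53n EZH2i, 3.45, 3.01 and 3.54 CPM in BB-p53n DMSO, and 0.107, 0.472 and 0 CPM in p53n. Its groups with and without inhibitor overlapped (log2 fold change 0.28, SE 0.28, adjusted p = 0.378; -0.21 with the trend removed, adjusted p = 0.524), and its p53n libraries ran from 0 to 11 counts. The difference between the responses of Nts and Lif was not tested.

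Of the cell surface genes, Lrrn4, a leucine-rich repeat membrane protein gene (chr2:132710225-132722811, minus strand), had the highest count level of the 18, with 24.1, 22.1 and 20.5 CPM in BB-p53n EZH2i, 15.7, 15.02 and 18.5 CPM in BB-p53n DMSO, and 0.179, 0.129 and 0.221 CPM in p53n. Tspan8, a tetraspanin gene best known in epithelia and carcinomas (chr10:115652737-115685798, plus strand), had 7.04, 6.27 and 5.91 CPM in BB-p53n EZH2i, 9.31, 8.83 and 10.7 CPM in BB-p53n DMSO, and 0.357, 0 and 0.0442 CPM in p53n. The groups did not overlap in either gene. As fitted Lrrn4 rose by 0.44 on the log2 scale (SE 0.11, adjusted p = 0.000936) and Tspan8 fell by 0.58 (SE 0.19, adjusted p = 0.0119). With the trend removed neither call remained, at 0.02 for Lrrn4 (adjusted p = 0.867) and, with the sign turned, 0.11 for Tspan8 (adjusted p = 0.645). The Tspan8 call was also lost without DMSO library 3 (adjusted p = 0.0669) or EZH2i library 3 (0.0507). Per kilobase of exon, Tspan8 stood first in BB-p53n DMSO at 5.65 CPM per kb, ahead of Lrrn4 at 4.42, Gm14322 at 2.22 and Nts at 1.75, whereas in BB-p53n EZH2i Lrrn4 stood first at 5.99, ahead of Tspan8 at 3.76 and Nts at 3.16.

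Klrb1c, which encodes the natural killer cell receptor NK1.1 (chr6:128755448-128766178, minus strand), had 1.92, 1.28 and 2.70 CPM in BB-p53n EZH2i, 2.49, 2.69 and 2.05 CPM in BB-p53n DMSO, and 0, 0.0429 and 0 CPM in p53n. The inhibitor and DMSO libraries overlapped (log2 fold change -0.28, SE 0.28, adjusted p = 0.374). With the trend removed Klrb1c was at -0.10 (adjusted p = 0.776). Of its exon bases 13.9% are shared with Gm44511, which had no counts in any group. Klrb1c and Ikzf1 are known from blood cells. In the PDGF-BB groups the summed level of 10 microglia markers was similar in size to these genes' own levels. In p53n the sum was far above both, as Klrb1c averaged 0.0143 CPM there and Ikzf1 0.171 CPM. The sum came to 1.88 to 2.57 CPM in BB-p53n EZH2i, 2.05 to 2.81 CPM in BB-p53n DMSO and 1.46 to 2.39 CPM in p53n. The pan-leukocyte gene Ptprc averaged 0.0153, 0.0491 and 0.0119 CPM in those groups, C1qa and Tyrobp had no counts, and most of each sum was Tmem119 and P2ry12. The part of immune cells in Klrb1c and Ikzf1 was not tested. The 8 endothelial markers summed to 19.3 to 20.5 CPM in BB-p53n EZH2i, 19.1 to 22.5 CPM in BB-p53n DMSO and 17.9 to 20.6 CPM in p53n.

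As fitted the sharpest falls were in a matrix gene and in poorly described genes, and with the trend removed each of these falls was smaller. Otogl, the otogelin-like component of the inner ear's acellular membranes (chr10:107596392-107747995, minus strand), had 0.640, 0.514 and 0.366 CPM in BB-p53n EZH2i, 3.01, 3.30 and 2.48 CPM in BB-p53n DMSO, and 0.107, 0.0858 and 0.0442 CPM in p53n. The inhibitor libraries were at 17.3% of the DMSO mean and still above every p53n library, with a log2 fold change of -2.51 (SE 0.31, adjusted p = 2.7e-07), or -1.43 with the trend removed (SE 0.31, adjusted p = 0.000547). Gm45104 (chr7:18130441-18134790, minus strand) had 0.640, 0.154 and 0.596 CPM in BB-p53n EZH2i, 2.69, 2.03 and 3.02 CPM in BB-p53n DMSO, and 0, 0 and 0.0442 CPM in p53n. It was at 17.9% of the DMSO mean with inhibitor (log2 fold change -2.42, SE 0.38, adjusted p = 7.33e-06), and its fall with the trend removed was -1.11 (adjusted p = 0.0121). The predicted protein-coding gene Gm14322 (chr2:177401081-177412265, plus strand) had 1.08, 0.976 and 0.825 CPM in BB-p53n EZH2i, 3.25, 2.58 and 2.54 CPM in BB-p53n DMSO, and 0.0715, 0 and 0.0442 CPM in p53n. Its log2 fold change was -1.53 (SE 0.28, adjusted p = 5.25e-05), or -0.74 with the trend removed (adjusted p = 0.0288), less than those of Foxa1 and Gm49335 in that fit. Gm14322 lies between other predicted genes of similar name, Gm14403 and Gm14325, and whether the counting divided reads among alike copies was not tested.

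The remaining transcripts are noncoding or without an annotation. E030013I19Rik (chr2:12305757-12317126, plus strand) had 5.48, 3.70 and 5.86 CPM in BB-p53n EZH2i, 3.51, 2.55 and 2.78 CPM in BB-p53n DMSO, and 0.0715, 0 and 0 CPM in p53n. Every inhibitor library was above every DMSO library (log2 fold change 0.78, SE 0.22, adjusted p = 0.00393). It overlaps the start of Itga8 on the opposite strand, sharing 372 exon bases, or 9.87% of its own exons, and the counts carried no strand, so reads there cannot be told apart. Itga8, the integrin alpha 8 gene, was far more abundant, at 87.0 CPM in BB-p53n EZH2i, 139.6 CPM in BB-p53n DMSO and 3.88 CPM in p53n, and its log2 fold change with inhibitor was -0.68 (adjusted p = 1.46e-07), which turned to 0.17 with the trend removed (adjusted p = 0.0219), where E030013I19Rik was at 0.77 (adjusted p = 0.00507). The lincRNA Gm49335 (chr10:126793892-126796866, plus strand) averaged 2.38 ± 0.36 CPM in BB-p53n EZH2i, 2.77 ± 0.32 CPM in BB-p53n DMSO and 0.114 ± 0.072 CPM in p53n (SD, n = 3 each), with overlapping inhibitor and DMSO libraries (log2 fold change -0.22, adjusted p = 0.416). With the trend removed Gm49335 was lower, at -0.92 (adjusted p = 0.00231). ENSMUSG00000119993 (chr3:152408303-152416205, plus strand) averaged 5.02 ± 1.01, 4.02 ± 0.58 and 0.123 ± 0.014 CPM in the same order, also with overlap (log2 fold change 0.32, adjusted p = 0.125).

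Across the 18 genes the inhibitor raised 3 (Lrrn4, E030013I19Rik and Nts) and lowered 7 (Tspan8, Nr5a2, Pax3, Otogl, Gm14322, Esr1 and Gm45104), and 8 did not pass the test. Of all 17001 genes tested, 37.3% were higher and 35.6% lower, so the 7 that fell are close to the background share and the 3 that rose are below it. The background was not matched to the low level of the 18 genes, where small changes are harder to call. The same 3 and 7 genes were those whose inhibitor and DMSO libraries did not overlap, where the background was 38.2% higher and 36.5% lower. The median log2 fold change of the 18 was -0.25, against 0.02 over all tested genes. The BB-p53n DMSO libraries entered both the choice of the genes and this comparison.

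No gene fell to its p53n level. The BB-p53n EZH2i mean stayed at 2 CPM or more in 13 genes, lay between 0.2 and 2 CPM in 5 (Klrb1c, Esr1, Gm14322, Otogl and Gm45104), and was under 0.2 CPM in 0. In all 18 genes each BB-p53n EZH2i library was above each p53n library, where 38.3% of tested genes showed that pattern. The p53n libraries are those that the choice required to be low.

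Base composition moved with the inhibitor's effect across the whole table. Over the 12786 tested genes with an average log2 CPM above 1, the log2 fold change had a Spearman correlation across genes of 0.73 with GC content and -0.43 with exon length, and genes are not independent replicates. The 17 members with a GC value had a median GC content of 46.9%, against 49.4% over those genes. With the trend on GC content and length removed from each library, 3 genes were higher (E030013I19Rik, Nts and Ikzf1) where 27.7% of tested genes were, and 6 were lower (Pax3, Otogl, Gm14322, Gm45104, Foxa1 and Gm49335) where 30.3% were. The largest rise was then Nts and the largest fall Otogl, as before. Lrrn4, Nr5a2, Tspan8 and Esr1 lost their call, and Ikzf1, Foxa1 and Gm49335 gained one. Of the called genes, Pax3, Gm14322, Gm45104 and Otogl as lower, and E030013I19Rik and Nts as higher, held in all 18 settings tried, and the part of base composition in the other calls was not tested further.

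**Figure D3:**
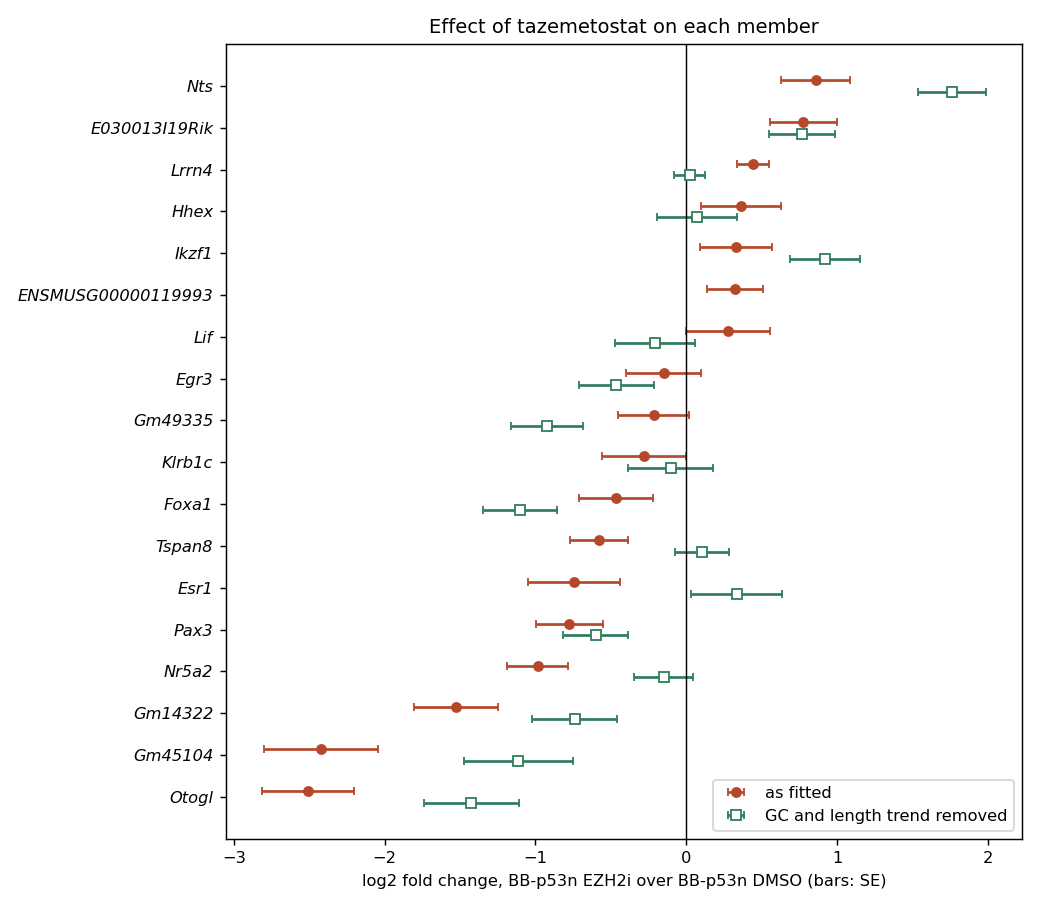
Log2 fold change of BB-p53n EZH2i over BB-p53n DMSO (horizontal axis, bars: SE) for each of the 18 genes, as fitted (filled circles) and after removal of the GC and length trend (open squares, absent for ENSMUSG00000119993). Nts, E030013I19Rik, Pax3, Gm14322, Gm45104 and Otogl stay on one side of 0 in both, Tspan8, Esr1 and Lif change side, and Nr5a2 and Lrrn4 move close to 0.

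None of the genes were close neighbours, but chromosome 10 held a larger share of them than of the silent genes as a whole. The 18 genes lie on 10 of the 19 autosomes, and no pair has starts within 500 kb, nor within 1000 kb. The closest pair, Nts and Otogl, is 5.28 Mb apart, and Lif and Ikzf1 are 7.43 Mb apart. Chromosome 10 holds 5 of the 18 (27.8%), whereas it holds 5.24% of the autosomal genes silent in p53n. Of these, Nts, Otogl, Tspan8 and Gm49335 lie within 24.5 Mb (chr10:102317617-126796866), a stretch with 0.905% of the silent genes, and Esr1 lies at the other end of the chromosome. The 89 other tested genes in that stretch had a median log2 fold change of BB-p53n DMSO over p53n of 0.48, against 0.03 for the other 726 tested genes of chromosome 10 and -0.02 over all tested genes. The ends of the stretch were set by the 4 genes after their positions were seen, and no test of it was made.

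The genes next door moved in both directions. The nearest tested gene on each side of each of the 18, at gaps of 0.154 to 1740 kb with a median of 111 kb, gave 36 flanking genes. Of these, 13 were higher and 10 lower in the BB-p53n DMSO libraries than in the p53n ones, with a median log2 fold change of 0.06 against -0.02 over all tested genes, of which 35.3% were higher and 34% lower. With inhibitor 10 were higher and 17 lower, against 37.3% and 35.6% of all tested genes, and with the trend removed 6 were higher and 10 lower, against 27.7% and 30.3%. The following were named after their values were seen. Lgr5, the receptor of R-spondins and a stem cell marker in gut, lies 229 kb from Tspan8 and was at 22.4 CPM in BB-p53n EZH2i, 37.8 CPM in BB-p53n DMSO and 7.51 CPM in p53n. Fignl1, a DNA repair gene 14.5 kb from Ikzf1, had means of 57.4, 106.6 and 19.1 CPM, groups ordered as before. Syne1, the nesprin-1 gene 15.3 kb from Esr1, was highest in p53n, at 33.7, 120.5 and 230.2 CPM. The noncoding neighbour of Hhex, Gm38345, which starts 0.154 kb away on the opposite strand, was at 1.57, 0.961 and 0.314 CPM.

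Promoter windows were found in RefSeq for 12 of the 18 genes: E030013I19Rik, Esr1, Foxa1, Gm14322, Hhex, Ikzf1, Klrb1c, Lif, Lrrn4, Nr5a2, Nts and Tspan8. None was found for the transcription factor genes Pax3 and Egr3, nor for Otogl, Gm45104, Gm49335 and ENSMUSG00000119993. The share and median below therefore hold for the 12 only. CpG content was measured as the observed over expected number of CpGs, where a value of at least 0.6 marks a CpG-rich window. Ikzf1 at 1.06, Foxa1 at 0.929 and Hhex at 0.878 were CpG-rich, which is 25% of the 12, and all 3 encode transcription factors. The other 9 lay between 0.070 for Klrb1c and 0.399 for E030013I19Rik. For comparison, 10.1% of 8124 genes silent in p53n, 44.9% of 19444 autosomal genes and 71.4% of 11296 tested genes had a CpG-rich window. The median was 0.284 for the 12, 0.205 for the silent genes and 0.759 for the tested genes, so that the 12 lay nearer to other silent genes than to genes in use. The CpG-rich promoters did not share a response to inhibitor: as fitted none of Ikzf1, Foxa1 and Hhex passed the test, and with the base composition trend removed Ikzf1 was higher and Foxa1 lower.

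**Figure D4:**
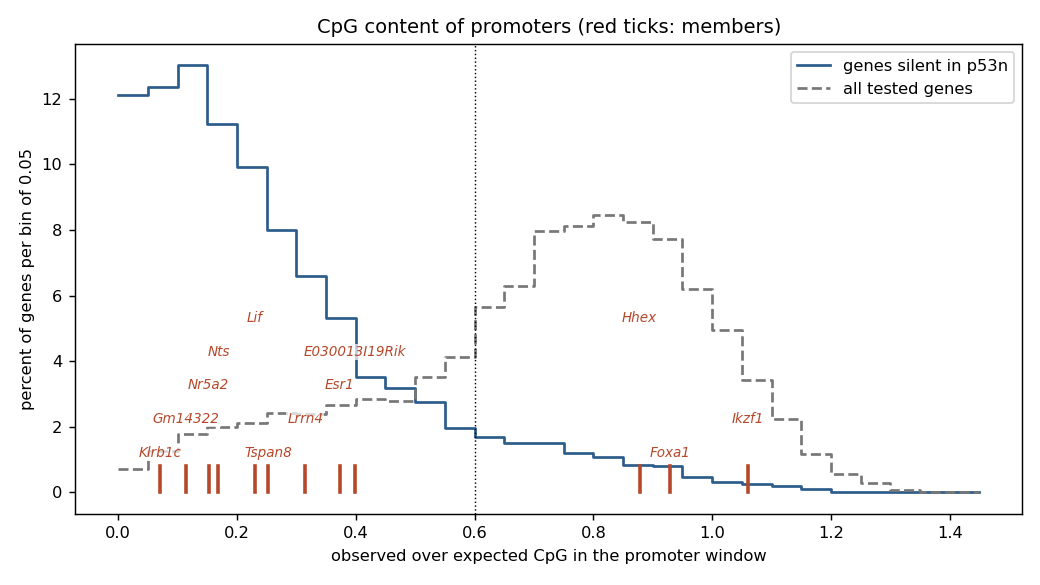
Distribution of observed over expected CpG (horizontal axis, no unit) in promoter windows of genes silent in p53n (solid line) and of all tested genes (dashed line), as the percent of genes per bin of 0.05 (vertical axis), with a tick for each of the 12 genes and a dotted line at 0.6. 9 ticks lie at or below 0.399, under the bulk of the silent genes, and Hhex, Foxa1 and Ikzf1 lie at 0.878 and above.

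Short motifs were searched in the windows on both strands. The GC box letters GGGCGG were found in Foxa1, Hhex and Ikzf1, the same 3 windows that are CpG-rich, and in 43.3% of all autosomal windows and 15.9% of those of silent genes. The AP-1 type letters TGANTCA were found in 2 of 12, in Lif at -228 and in Nts at -207 relative to the start (tgagtca in the Nts sequence above), against 7.48% of all windows and 11.6% of silent ones. The TATA letters TATAAA were found in Nr5a2 alone, on the reverse strand at -181, against 13.3% of all and 22.1% of silent windows, and the E-box letters CACGTG in 0 of 12, against 7.70% and 5.01%. TGANTCA and CACGTG read alike on both strands and were counted once per place. A match describes the letters of these windows only.

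In each of the gene classes listed here most silent genes stayed silent, though a smaller share than the 98.4% of all silent genes. That 98.4% covers genes of every kind, of which 21.2% were protein coding. No share over silent protein-coding genes alone was made, so the lower shares are not shown to be particular to these classes. Of 123 autosomal genes in a list of homeobox and T-box factors, 70 were under 0.2 CPM in p53n, 64 of those (91.4%) stayed under 0.2 CPM in BB-p53n DMSO, and 1, Pax3, reached 2 CPM. Of 102 other developmental factors 65 were silent in p53n, 53 (81.5%) stayed silent and 1, Foxa1, reached 2 CPM, and of 104 signalling ligands and inhibitors 64 were silent, 54 (84.4%) stayed silent and 1, Lif, reached 2 CPM. Lists of 82 collagen and matrix genes, 24 cadherins and 64 channels and receptors held 28, 11 and 20 silent genes, of which 0 reached 2 CPM and 26, 9 and 14 stayed silent. Twist1, Tbx3 and Hapln1 were left off these lists, and Hhex, Nr5a2, Esr1, Egr3 and Ikzf1 are on none of them. The numbers that reached 2 CPM therefore depend on how the lists were made. Among genes of these lists loud enough to test, inhibitor raised 31 and lowered 8 of 64 homeobox and T-box factors, with a median log2 fold change of 0.52, and once the GC and length trend was taken out 19 were higher and 24 lower, with a median of -0.08. It raised 18 and lowered 11 of 46 other developmental factors (6 and 19 with the trend removed), and raised 16 and lowered 4 of 41 signalling genes (10 and 4). The shares over all tested genes were 37.3% higher and 35.6% lower as fitted, and 27.7% and 30.3% with the trend removed.

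Some developmental genes that stayed below the threshold in BB-p53n DMSO passed it with inhibitor, and those given here were picked after their values were seen. Hmx2, a homeobox factor of the inner ear, averaged 4.24 CPM in BB-p53n EZH2i, 1.41 CPM in BB-p53n DMSO and 0.0386 CPM in p53n, and rose with inhibitor by 1.59 on the log2 scale (adjusted p = 3.6e-06) and by 0.90 with the trend removed (adjusted p = 0.00242). Foxf2, a forkhead factor of mesenchyme, averaged 2.43, 1.26 and 0.0357 CPM in the same order, and its log2 fold change of 0.95 (adjusted p = 0.00707) was 0.08 with the trend removed (adjusted p = 0.837). Rspo1, a secreted Wnt pathway agonist, averaged 2.02, 0.510 and 0.0910 CPM, and rose by 1.98 (adjusted p = 3.79e-05) and by 1.08 with the trend removed (adjusted p = 0.014). Of the homeobox genes already on in BB-p53n DMSO, Pax3 fell with inhibitor and Hhex, at a log2 fold change of 0.36 (adjusted p = 0.227), did not pass the test.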

How the data were processed

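RNA was sequenced as 150 bp pairs from 500 ng of total RNA per library, per the labels' protocols. The authors deposited 1 table of raw, unnormalized gene counts. Per the file headers, featureCounts 1.6.3 counted pairs over Ensembl release 108 exons, requiring both ends to map with quality 20 or more and setting no strand option. The build is GRCm39, and Trimmomatic and Subread are also named, per the submitters' processing notes. Their settings are not stated there. Symbols, biotypes and GC content came from GENCODE and promoter sequences from RefSeq, both on GRCm38, joined by gene identifier or symbol.

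CPM is count over column total times 1000000. Genes passing filterByExpr (17001) were TMM-scaled and fitted with edgeR 4.0.16 (R 4.3.3; robust quasi-likelihood, 9 libraries, group as the only term), with Benjamini-Hochberg adjustment and a threshold of 0.05. All 18 genes passed that filter, which the PDGF-BB libraries alone could have ensured. SE is the size of the unshrunk log2 fold change over the square root of F. The GC and length trend was a loess curve per library (span 0.3) on GC content and exon length over genes with average log2 CPM above 1, entered as an offset. It was applied to every tested gene with a GC value. Genes below that level, Otogl and Gm45104 among them, took no part in fitting the curve. The labels do not say that libraries came from separate cultures. The p-values then reflect the spread among libraries alone, and that spread may be technical. Pairs of libraries of a group differed by a mean chi-square per gene of 6.34 to 18.5, where sampling noise gives 1, so none was treated as the same library deposited again.

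The genes, gene lists and tests were chosen with earlier results of these data known. The naming rule took the 12 genes highest in BB-p53n DMSO, the largest called rises and falls, the top members of each list, the genes next to each threshold, and Pdgfb, Trp53 and Ezh2. Egr3 and Ikzf1 fell outside it and were added to account for every gene. The fits were checked on simulated counts. Alternatives included DESeq2 1.42.0, no TMM, no filter, fewer libraries and a replicate block. The CPM value of 3 counts in a library is a floor for counting error only, and SDs and SEs reflect the spread among libraries.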

Additional observations from a re-analysis of the deposited data

How the results depend on the processing

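The number of genes depended on where the thresholds were set: 18 with TMM-scaled CPM, 7 with a p53n mean under 0.1 CPM, 0 with no counts in any p53n library, 46 with a BB-p53n DMSO mean of at least 1 CPM, 3 with at least 5 CPM and 11 with both thresholds met in every library. Leaving out 1 library at a time gave 16 to 19. With inhibitor the number of genes that were higher was 3 in every setting, and the number that were lower ran from 5 to 8; the median log2 fold change ran from -0.35 to -0.14. Over all tested genes 4512 to 6418 were higher and 4950 to 6854 lower.

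Removal of the GC and length trend reversed Esr1 to 0.34, Tspan8 to 0.11 and Lif to -0.21, and together with the replicate block to 0.30, 0.11 and -0.22; these directions rest on that setting, and the cause was not tested. Leaving out 1 library at a time, Egr3 ran from -0.30 to 0.028 (without EZH2i library 2) and Hhex from -0.031 (without EZH2i library 1) to 0.57. Foxa1 passed the threshold with the PDGF-BB libraries alone (adjusted p = 0.0395), without EZH2i library 2 (0.0453) and without p53n library 1 (0.0473). The verdict on 7 of the 18 genes was the same in all 17 alternatives, and that on ENSMUSG00000119993, which has no GC value, in its 15. The CpG-rich share was 25% and the number of loci 0 in each of their settings. Same-numbered EZH2i and DMSO libraries deviated together with correlations of 0.34, 0.27 and 0.00, and same-numbered pairs involving p53n between -0.21 and 0.06. EZH2i library 2 against DMSO library 1 was at -0.30, and EZH2i library 1 against DMSO library 2 at -0.31. These values cannot decide whether same-numbered libraries were paired. With the replicate block 3 genes were higher and 7 lower, and no gene changed its call.

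Counts limit the precision: the lowest BB-p53n DMSO library of any of these genes held 67 counts. A gene that did not pass the test is not thereby shown to be unaffected by the inhibitor.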
